A study of Gallus gallus with 2 samples.

Results

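The stretch of chicken chromosome 3 from 41.63 to 41.95 Mb (galGal5, 320 kb) at the DACT2-SMOC2 locus had been set apart as a domain in an earlier analysis of these data, and its folding was measured by low-input targeted chromatin capture (T2C) in 2 tissues of the hindlimb digit, interzone and phalange. Its members were all listed pairs of restriction fragments with both midpoints between these positions and at least 1 fragment between them. They numbered 5088 of the 94492 non-adjacent pairs of the locus in the interzone library (5.38%, Wilson 95% interval 5.24 to 5.53) and 3471 of 65117 in the phalange library (5.33%, 5.16 to 5.51). They join 711 of the 6569 fragments of the locus, which is 10.8%. The domain was chosen by minima of contact called earlier in these same lists, so the values inside it and at its edges are given as a description, with no test.

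The interzone is the band of condensed cells at which a synovial joint forms, and the phalange is the cartilage element beside it. Both were dissected from digit 3 of White Leghorn hindlimbs after 7.5 days of incubation (stage HH32). Each library was made from 100 pooled specimens, so it averages over many embryos and over all cell types in the dissected piece. The groups share breed, stage, digit and procedure and differ, as far as the labels say, in the dissected tissue alone. No marker genes were measured, so the identity of the tissues rests on the labels. There was 1 library per tissue. Nothing below has a replicate check, and each interval or test compares 2 libraries and not 2 tissues.

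T2C fixes chromatin with a crosslinker, cuts it at ApoI sites and joins ends that lie near each other, and baits then capture the joined molecules of a chosen locus for sequencing. A joined pair of fragments shows that they lay close together in some nuclei. Chromosomes of vertebrates fold into domains within which sequences touch each other more often than they touch their surroundings, and the edges of such domains are seen as positions that few contacts cross. Some domains also show frequent contact between their outer ends, as cohesin-made loops anchored at CTCF sites do. SMOC2 encodes a secreted matricellular protein, and DACT2 encodes a cytoplasmic regulator of Wnt and TGF-beta family signalling. In the GRCg7b gene table, THBS2 and FRMD1 flank the SMOC2 to DACT2 interval on its outer sides, and 8 protein-coding models lie within it. That table uses another build than the lists, so no gene is placed inside or outside the domain here.

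The authors deposited 1 value per listed pair, a signal without a unit. Because the scaling of the signal is not given and its sequencing depth is unknown, the number of listed pairs was the main measure, and the signal was carried beside it. With adjacent fragments included, 100914 pairs were listed for the interzone and 71542 for the phalange. At 20 kb or more the domain held 2317 interzone and 1225 phalange pairs out of 218654 possible ones. Observed over expected is the number of listed pairs over the number expected if each possible pair were listed as often as possible pairs at the same distance over the whole locus. Its 95% intervals are exact Poisson intervals that cover counting error only and treat listed pairs as independent. They contain no variation between specimens or libraries.

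Inside the domain, close fragments were listed together less often than elsewhere in the locus at the same distance, and distant fragments more often. At 20 to 50 kb the interzone listed 716 pairs, an observed over expected of 0.730 (0.678 to 0.786), and the phalange listed 375, or 0.753 (0.679 to 0.834). At 100 to 150 kb the ratio was 0.929 (0.842 to 1.02) in interzone and 0.760 (0.657 to 0.873) in phalange chromatin. At 150 to 200 kb it was 1.11 (0.981 to 1.24) and 1.03 (0.879 to 1.21), close to the expectation. At 200 to 250 kb the interzone listed 171 pairs, or 1.5 (1.29 to 1.74), and the phalange 110 pairs, or 1.54 (1.27 to 1.86). At 250 to 320 kb, which joins sequences near opposite ends, there were 70 interzone pairs, or 2.11 (1.64 to 2.66), and 37 phalange pairs, or 1.69 (1.19 to 2.34). The rise was not even over the domain. Among the most distant blocks of 40 kb, given below, the interzone intervals above 1 all belonged to the first 40 kb.

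**Figure D1:**
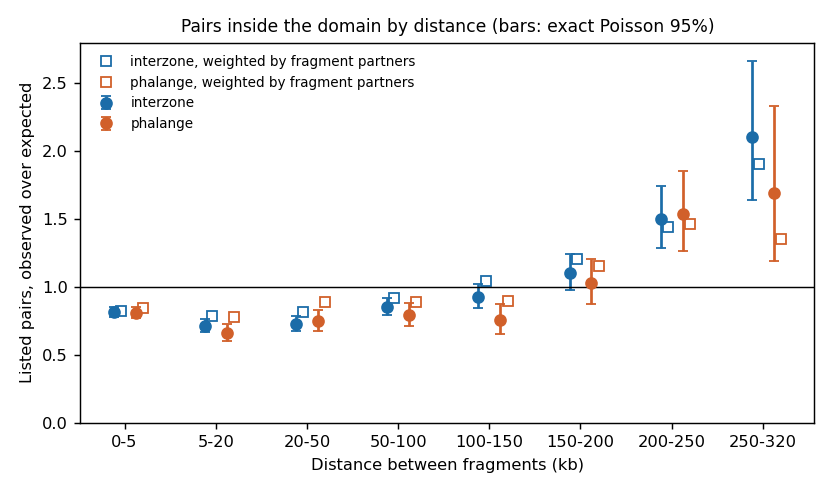
Listed pairs inside the domain over the number expected at the same distance (vertical axis, no unit), for 8 classes of distance in kb (horizontal axis). Filled points are each library with exact Poisson 95% intervals, and open squares are the same ratio with the expectation weighted by the partners of each fragment. In both libraries the ratio is below 1 at short distances and reaches 1.5 in interzone and 1.54 in phalange chromatin at 200 to 250 kb.

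The decay of contact with distance was correspondingly shallow. From 20 to 250 kb, the slope of log10 share of possible pairs listed on log10 distance was -0.274 inside the domain and -0.625 over the whole locus in the interzone. In the phalange the slopes were -0.24 and -0.524. Over all distances of 20 kb or more, the domain as a whole was slightly below the expectation for the locus, at 0.890 (0.854 to 0.927) in interzone and 0.850 (0.803 to 0.899) in phalange chromatin. By this measure the stretch is not one whose fragments were listed together more often than those of the locus at the same distance, and it is called a domain below only as its given name.

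The low values at short distances moved towards 1, and stayed below it, when fragment partners or fragment length were taken into account. The median fragment was 292 bp in the domain and 325 bp in the locus, and long fragments have more listed partners: over the 711 fragments, length and partners inside the domain had a Spearman rho of 0.821, given as a description. Fragments of 200 to 400 bp in the domain had a median of 17 interzone and 10 phalange partners at 20 kb or more anywhere in the locus, while those of 800 to 1600 bp had 41 and 26. The partners used as weights were those at 20 kb or more in the same list, pairs of the domain included. Wherever they are used here, such weights take up part of the contacts being measured. When the expectation was weighted by the number of partners of each fragment, pairs at 20 to 50 kb came to 0.819 in the interzone library and 0.890 in the phalange library, and the whole domain came to 0.973 in interzone and 0.965 in phalange chromatin. When it was weighted by the mean partners of the length class, a setting chosen after seeing the data, pairs at 20 to 50 kb came to 0.8735 and 0.951. The whole domain then came to 1.04 in both libraries. The rise with distance was present on the scale weighted by fragment partners as well, with 1.44 in interzone and 1.46 in phalange chromatin at 200 to 250 kb. At 250 to 320 kb the weighted values were 1.91 and 1.36, so that the phalange rose no further there.

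The domains on either side gave a measure of scale. From 41.23 to 41.63 Mb, observed over expected was 0.835 in interzone and 0.751 in phalange chromatin, and from 41.95 to 42.30 Mb it was 1.13 and 1.19. Contacts between the 41.63 to 41.95 Mb domain and its left neighbour were at 0.724 (0.697 to 0.752) in interzone and 0.644 (0.613 to 0.678) in phalange chromatin, lower than inside either of these domains. Contacts with its right neighbour were at 0.894 (0.855 to 0.933) and 0.926 (0.878 to 0.977). On the scale of listed pairs, these were no lower than the inside of the domain itself. This order changed with weighting by fragment partners. The left neighbour was then at 0.902 and 0.928 and the right neighbour at 0.836 and 0.856, against 0.973 and 0.965 for the domain. Weighted contacts of the domain were alike on both sides, at 0.793 and 0.788 with the left neighbour and 0.791 and 0.805 with the right. The effect of weighting also differed with place in the locus. From 42.94 to 43.61 Mb the inside was at 0.871 in interzone and 0.813 in phalange chromatin by listed pairs, and at 1.34 and 1.36 weighted. From 40.15 to 40.84 Mb it was at 1.355 and 1.431, and at 1.456 and 1.449 weighted.

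Closer to the edges themselves, the left edge and the right edge differed. At distances of 20 to 200 kb, contacts across the left edge were at 0.495 (0.456 to 0.537) in the interzone, 588 pairs where 1187 were expected, and at 0.445 (0.397 to 0.498) in the phalange, 305 pairs. The inside of the domain at the same distances was at 0.845 (0.809 to 0.882) and 0.799 (0.752 to 0.849). Across the right edge the ratio was 0.893 (0.815 to 0.978) in interzone and 1.10 (0.984 to 1.22) in phalange chromatin, so that per possible pair the right edge was not a position of few contacts. Weighted by the partners of each fragment, the right edge was at 0.677 and 0.710 and the left edge at 0.515 and 0.547, against 0.933 and 0.924 inside, so that both edges were then low. Weighted by length class, the right edge was at 0.807 and 0.979 and the left edge at 0.637 and 0.615, against 0.998 and 0.993 inside. On that scale the right edge was low in the interzone and close to the inside in the phalange.

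A score of contact across each position, using 100 kb on either side, gave the same picture in log2 units. In both libraries the left edge was the lowest position in the window shown, at -1.18 in the interzone (330 crossing pairs) and -1.40 in the phalange (159 pairs), and weighted by partners it was at -1.07 and -1.05. At the right edge the unweighted score was close to 0 in interzone and 0.12 in phalange chromatin, and the weighted score was -0.51 and -0.69. The nearest minimum on the right was at 41970001 in the interzone (weighted score -0.80) and at 41960001 in the phalange (-0.90). Shallower minima lay inside the domain, and their place depended on the scale. By listed pairs they were at 41830001 in the interzone (-0.32) and at 41860001 in the phalange (-0.45). On the weighted scale they were at 41900001 (-0.44) and 41860001 (-0.61). Weighted by length class they were at 41880001 and 41900001 in the interzone (both -0.25) and at 41860001 in the phalange (-0.38). By summed signal both libraries had a minimum at 41830001 (-0.22 and -0.33), and the interzone had another at 41870001 (-0.08).

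**Figure D2:**
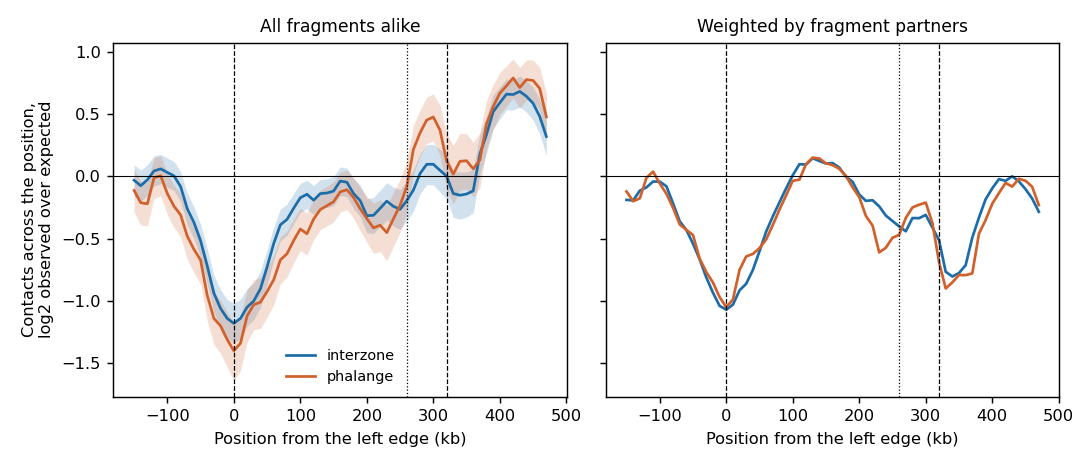
Contact across each position (vertical axis, log2 observed over expected, 100 kb on either side) against distance from the left edge of the domain in kb, with all fragments treated alike on the left and weighted by fragment partners on the right. Lines are the interzone and phalange libraries, shading on the left is the exact Poisson 95% interval, dashed lines are the domain edges and the dotted line is the inner position at 260 kb. The left edge is a deep minimum in both panels, -1.18 and -1.40 unweighted, whereas the right edge is low in the weighted panel alone, at -0.51 and -0.69.

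The values just inside and just outside these edges show how they fall between fragments. On the left, the last fragment outside, 41629539 to 41629890 (352 bp), had 33 interzone and 15 phalange partners at 20 kb or more, and the first inside, 41629897 to 41630625 (729 bp), had 63 and 34. On the right, the last inside, 41947554 to 41951107 (3554 bp), had 44 and 58 partners, and the first outside, 41951114 to 41951263 (150 bp), had 5 and 2. In each of these cases the longer fragment had more partners.

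A finer view came from 8 blocks of 40 kb, which make 36 block pairs. The interval of observed over expected lay above 1 for 5 block pairs in interzone and 6 in phalange chromatin, against 23.4% and 20.4% of the 667 block pairs of the locus within the same span of distances. It lay below 1 for 10 block pairs in each library, against 18.0% and 17.2%. Of the 15 pairs of a block with itself or the next, the interval lay below 1 in 7 for the interzone and 3 for the phalange, and of the 15 pairs that were 2 to 4 blocks apart it did so in 2 and 7. Among the 6 block pairs that were 5 to 7 blocks apart, 3 lay above 1 in each library. The locus shares are not split by distance, so they give no background for these counts by distance. In the interzone the 3 above 1 joined the first block to the sixth, seventh and eighth. Among block pairs of the locus at the same distance, they ranked number 12 of 81, 2 of 79 and 10 of 77. The second with the seventh was at 1.015, the second with the eighth at 0.543 and the third with the eighth at 0.746. In the phalange the 3 above 1 were the first with the sixth and seventh, and the second with the seventh at 1.37 (1.004 to 1.83). They ranked number 19 of 81, 7 of 79 and 23 of 81. In that library the second with the eighth was at 0.650 and the third with the eighth at 1.41 (0.769 to 2.36). The libraries ranked the 36 block pairs alike, with r = 0.846 (Pearson) and rho = 0.722 (Spearman), given as a description across block pairs that share fragments and baits. In 8 block pairs both libraries were above 1 and in 23 both were below, counts for which no share over the locus is given here.

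The eighth block with itself was the highest in both libraries, at 3.54 (1.83 to 6.18) and 7.20 (3.72 to 12.6) from 12 pairs in each, and in the phalange the seventh with the eighth followed at 2.24 (1.60 to 3.03). These lie in or beside a stretch with few fragments that is described further on. The highest value without the eighth block was that of the first block, up to 41670000, with the seventh, 41870001 to 41910000. From 41900001 on, the seventh block lies in that stretch as well. This block pair held 119 interzone pairs, or 2.72 times the expected number (2.25 to 3.25), and 52 phalange pairs, or 1.91 times (1.43 to 2.5). Of the 79 block pairs of the locus that were 240 kb apart, it ranked number 2 in interzone and number 7 in phalange chromatin. The first block with the eighth, 41910001 to 41950000, held 29 interzone pairs, or 1.66 (1.11 to 2.38), and 15 phalange pairs, or 1.30 (0.729 to 2.15). With both edges of the domain moved inwards by 10 kb, these end contacts were at 1.04 (0.633 to 1.60) and 0.808 (0.388 to 1.49). The lowest interzone values were those of the first block with the second, 41670001 to 41710000, at 0.538 (0.440 to 0.652), of the second with the eighth at 0.543 (0.281 to 0.949), and of the first block with itself at 0.578 (0.342 to 0.913). In the phalange the lowest were the fifth block, 41790001 to 41830000, with the eighth at 0.418 (0.180 to 0.823), the first with the fourth, 41750001 to 41790000, at 0.489 (0.319 to 0.716), and the fourth with itself at 0.524 (0.226 to 1.03). By listed pairs inside the domain, the first block was thus low with the second and high with the sixth and seventh. Weighted by fragment partners, it was at 0.65 and 0.78 with the second and at 2.26 and 1.63 with the seventh. Low values close by were not particular to the first block. Over the 15 pairs of a block with itself or the next, the median was 0.761 in interzone and 0.806 in phalange chromatin.

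**Figure D3:**
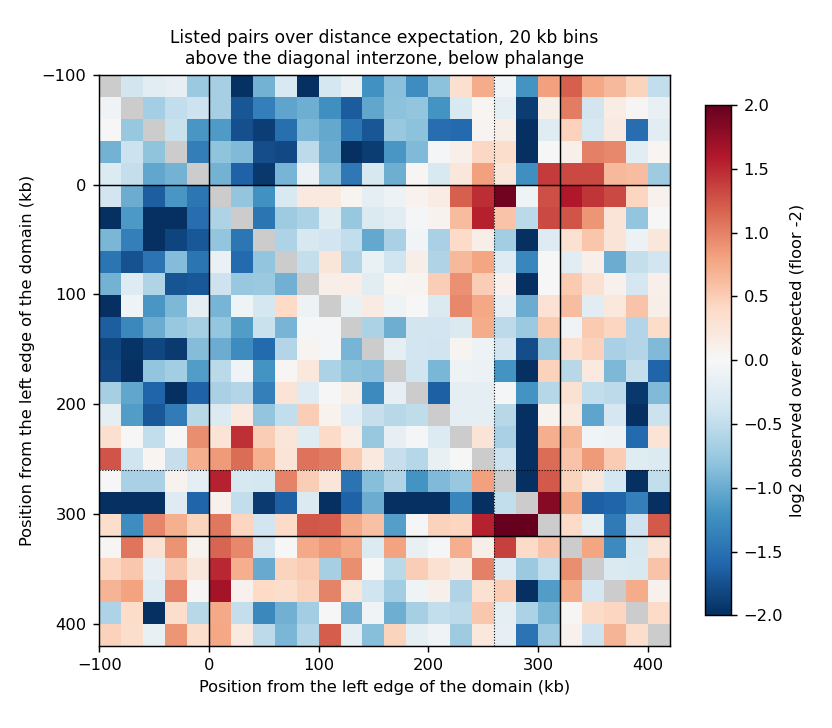
Log2 of listed pairs over the distance expectation (colour, floor at -2) for pairs of 20 kb bins, with position from the left edge of the domain in kb on both axes. The interzone is above the diagonal and the phalange below it, solid lines are the domain edges, and dotted lines are the inner position at 260 kb. Red cells join the first 40 kb to the bins that start at 220 to 260 kb. The exception is the second bin with the bin at 260 kb in the phalange, at 0.805 (6 pairs). The highest red cell of this group, the first bin with the bin at 260 kb, is at 3.79 for the interzone (43 pairs) and 2.9 for the phalange (21 pairs).

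The profile of the first 40 kb over 20 kb bins placed this contact more closely. Beside the viewpoint, the bin starting at 41670001 was at 0.407 (0.294 to 0.548, 43 pairs) in interzone and 0.503 (0.332 to 0.732, 27 pairs) in phalange chromatin. Weighted by fragment partners this bin was at 0.549 and 0.852. By listed pairs it was the lowest bin inside the domain for the interzone. In the phalange the lowest inside was the bin starting at 41770001, at 0.461 (0.245 to 0.788, 13 pairs). Left of the domain, the bin starting at 41570001 was lower still, at 0.384 and 0.282. Inside the domain the profile stayed near or below 1 up to the bin starting at 41830001, with 1.08 and 0.986. The profile then rose to 1.91 (1.44 to 2.48, 56 pairs) and 1.97 (1.38 to 2.73, 36 pairs) for the bin starting at 41850001. The bin starting at 41870001 was at 2.86 (2.17 to 3.70) and 1.99 (1.29 to 2.94), and the bin after it at 2.60 (1.99 to 3.33) and 1.84 (1.21 to 2.67). Beyond a bin with few fragments starting at 41910001, where 7 and 5 pairs gave 0.815 and 0.883, high values went on past the right edge of the domain. They were 2.72 (2.0 to 3.6) and 2.09 (1.33 to 3.14) for the first 20 kb past the edge, and 2.26 (1.69 to 2.95) and 2.24 (1.53 to 3.16) for the bin starting at 41970001. They were 0.953 (0.545 to 1.55) and 1.20 (0.638 to 2.05) at 42010001 and rose again further on, to 2.23 (1.58 to 3.04) in the interzone for the bin starting at 42070001 and 2.09 (1.24 to 3.30) in the phalange for that starting at 42110001. The contacts of the left end were thus not limited to the domain, and with the whole right neighbour they were at 1.49 (1.34 to 1.65) in interzone and 1.28 (1.12 to 1.47) in phalange chromatin. With the left neighbour they were at 0.730 (0.672 to 0.792) and 0.616 (0.547 to 0.692).

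**Figure D4:**
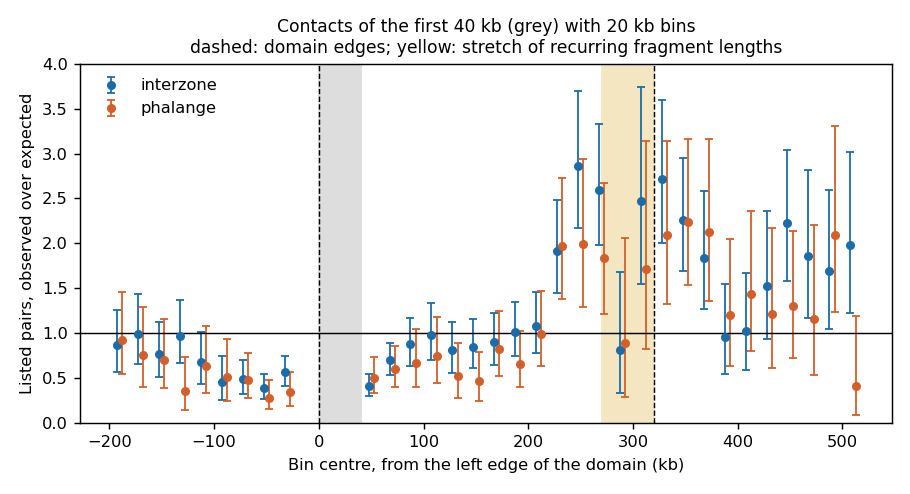
Observed over expected listed pairs (vertical axis, no unit) between the first 40 kb of the domain (grey band) and 20 kb bins, by distance of the bin centre from the left edge in kb. Points are the interzone and phalange libraries with exact Poisson 95% intervals, dashed lines are the domain edges, and the yellow band is the stretch of recurring fragment lengths. Values stay near or below 1 across the domain and reach 2.86 in interzone and 1.99 in phalange chromatin for the bin starting at 41870001, and they remain high beyond the right edge.

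The 40 kb from 41860001 to 41900000, which is 230 to 270 kb from the left edge, were then taken as the other end of this contact, a choice made after the profile had been seen. The first 40 kb and these 40 kb shared 138 interzone pairs where 51.8 were expected, or 2.66 (2.24 to 3.15), and 71 phalange pairs where 32.2 were expected, or 2.20 (1.72 to 2.78). Weighted by fragment partners the values were 2.07 and 1.91, by length class 3.06 and 2.63, and by summed signal 2.65 and 2.28. The contact was spread over many fragments. In the interzone 60 of the 103 left fragments and 55 of the 80 right fragments took part, in the phalange 43 and 41 did, and no fragment had more than 9 of the pairs in the interzone or 5 in the phalange. Of the 16 cells of 10 by 10 kb in this square, 15 were above 1 in interzone and 12 in phalange chromatin, and the interval lay above 1 in 8 and 5. The square was chosen for its high values, so these counts only describe it. Of the 138 interzone and 71 phalange pairs of the square, 1 was in both lists. Over the whole locus at 200 to 250 kb, 1.46% of interzone pairs and 2.34% of phalange pairs were in both. So small an overlap is common to the locus at such distances and is not particular to this contact.

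The sequence between these ends was not above the expectation with itself or with the first 40 kb. Within the 190 kb in between, observed over expected was 0.810 (0.763 to 0.860) in interzone and 0.777 (0.714 to 0.844) in phalange chromatin, or 0.994 and 1.03 weighted by fragment partners. The first 40 kb with this middle part were at 0.806 (0.732 to 0.887) and 0.664 (0.574 to 0.763). The stretch at 230 to 270 kb with the middle part was at 1.07 (0.970 to 1.17) and 0.945 (0.825 to 1.08). By 20 kb bin these values were uneven. In the interzone the bin starting at 41710001 was at 1.70 (1.21 to 2.31) and that starting at 41790001 at 0.868. In the phalange the bin starting at 41730001 was at 1.75 (1.14 to 2.57) and that starting at 41810001 at 0.703. Weighted by fragment partners the spread was smaller, with these bins at 1.229 and 0.8856 in the interzone and at 1.194 and 0.7222 in the phalange. Seen from the stretch at 230 to 270 kb, the bins at the left end of the domain were high, at 3.19 (2.53 to 3.96) in the interzone for the first 20 kb and 2.16 (1.64 to 2.8) for the next bin, with 2.22 (1.54 to 3.08) and 2.19 (1.54 to 3.03) in the phalange. By listed pairs the last 20 kb of the domain were at 1.97 (1.39 to 2.72) in the interzone and, above the left end, at 2.56 (1.67 to 3.75) in the phalange. Weighted by fragment partners these last 20 kb were near the expectation, at 1.12 and 1.008, and below the left end. The bins at the left end were then at 2.135 and 1.988 in the interzone and at 1.662 and 2.224 in the phalange. On the far side of the left edge, the bin starting at 41610001 was at 1.53 (1.09 to 2.08) and 1.40 (0.898 to 2.09). The stretch at 230 to 270 kb were also above the expectation with the left neighbour as a whole, at 1.33 (1.21 to 1.47) and 1.16 (1.01 to 1.31), whereas the middle part was at 0.626 (0.596 to 0.658) and 0.551 (0.515 to 0.588) with that neighbour. With the right neighbour the middle part was at 0.810 (0.766 to 0.857) and 0.841 (0.784 to 0.900). Both ends of the contact therefore met sequence beyond the edge opposite to them more often than the middle part did.

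A further inner position, 260 kb from the left edge, was examined because an earlier analysis of the signal had called a minimum there. The crossing score used here had no minimum at that position in either library. At 20 to 200 kb, contacts across it within the domain were at 0.746 (0.652 to 0.851) in interzone and 0.760 (0.635 to 0.903) in phalange chromatin. At all distances of 20 kb or more they were at 0.878 (0.788 to 0.976) and 0.904 (0.785 to 1.04), a span that takes in the long contacts of the left end. In the interzone the value at all distances rose to 1.02 (0.874 to 1.17) without the fragments from 41900001 to 41950000, a setting chosen after seeing the data. In the phalange it was 0.901 (0.727 to 1.10) without them.

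Those last 50 kb differ from the rest in how they are cut. From 41900001 to 41950000 there were 39 fragments, 6 to 10 per 10 kb bin, with a median length of 1165 bp. The other 27 bins of the domain held 13 to 33 fragments each, with a median of 24 fragments per bin and a median length of 288.5 bp. Across the domain 706 of 710 steps from a fragment to the next left a gap of exactly 6 bp, the length of an ApoI site. The 2 longest gaps of the domain lie in this stretch, 812 bp from 41914754 to 41915565 and 713 bp from 41924895 to 41925607. Listed partners inside the domain ranged from 11 to 82 per bin in interzone and from 14 to 69 in phalange chromatin. The bin starting at 41920001, with 7 fragments, was the lowest of the 5 in both, and that starting at 41940001 was the highest of the 5 in both.

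**Figure D5:**
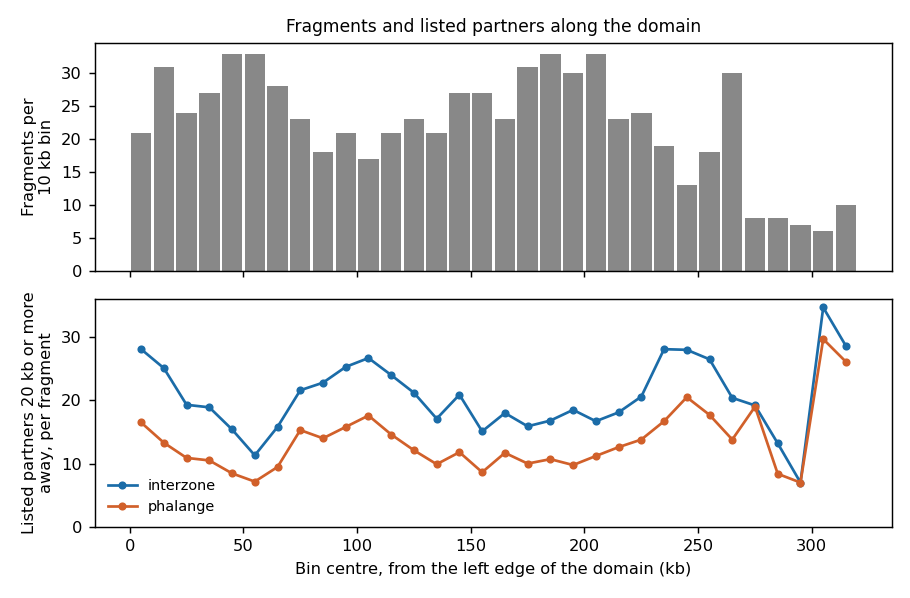
Fragments per 10 kb bin (upper panel) and listed partners at 20 kb or more per fragment (lower panel, interzone and phalange) against distance of the bin centre from the left edge of the domain in kb. The last 5 bins hold 6 to 10 fragments each against 13 to 33 in the others, and in the interzone partners per fragment run there from 7.0 to 34.7.

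The order of fragment lengths in this stretch recurs. Runs of 4 consecutive fragments were compared over the whole locus and called matching when every length agreed within 5% or 3 bp. Of the 19 matching pairs of runs, 7 had both members between 41900001 and 41952000, a window with 41 fragments or 0.624% of those of the locus. Several of the 7 overlap, being the same match shifted by a fragment, so they are not 7 separate recurrences. The run at 41903277 to 41909144 has lengths of 150, 3541, 738 and 1421 bp. The run at 41917130 to 41922944 has 151, 3496, 738 and 1412 bp in the same order. The run at 41945380 to 41951263, which reaches the right edge, has 1423, 739, 3554 and 150 bp, the same order reversed. A further run of 1421, 2720, 9 and 1378 bp from 41907724 to 41913269 matches 1459, 2725, 9 and 1377 bp from 41934619 to 41940206. The bases themselves were not analysed here, and whether these runs are copies of 1 sequence was not tested.

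Among pairs of the domain at 20 kb or more, the highest signals fell on these fragments. At that distance the strongest pair in both lists joined 41900329 to 41901705 with 41938830 to 41940206, each 1377 bp long and 38.5 kb apart, with a signal of 0.058 in interzone and 0.0738 in phalange chromatin. The median signal of domain pairs at 20 kb or more was 0.000294 and 0.000289. The next were 41922951 to 41924894 with 41943513 to 41945373, at 0.0375 and 0.054, and 41909151 to 41911870 with the same partner, at 0.0263 and 0.0494. The remaining pairs of the strongest 5 joined 41907724 to 41909144 with 41934619 to 41936077, at 0.0101 and 0.00888, and 41909151 to 41911870 with 41936084 to 41938808, at 0.00633 and 0.00995. Each of the 5 pairs has both ends in the last 50 kb, and the second, the fourth and the fifth join fragments that hold the same place in matching runs.

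These few pairs weighed heavily in the summed signal. Of the 10 highest signals of the locus at 20 kb or more, 7 in interzone and 6 in phalange chromatin had both ends from 41900001 to 41950000. The stretch held 22 interzone pairs, 0.95% of the domain's pairs at 20 kb or more, with 20.2% of their signal, and 28 phalange pairs, 2.29% of the pairs, with 38.8% of the signal. By summed signal the whole domain was at 1.27 in interzone and 1.60 in phalange chromatin, above and not below the expectation. Without these fragments it was at 1.00 and 0.934. Over the last 60 kb of the domain, observed over expected by listed pairs was 1.72 (1.22 to 2.35, 39 pairs) in interzone and 3.55 (2.55 to 4.82, 41 pairs) in phalange chromatin, and by signal it was 30.2 and 76.6. By signal, the right end of the domain is thus dominated by a few pairs between long fragments, many of them of recurring lengths. How reads from such fragments were assigned is not given in the sources used here, and its part in these values was not tested.

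The fragments with most partners were elsewhere. Summed over both libraries, the 5 with most partners inside the domain at 20 kb or more lay between 107 and 237 kb from the left edge and were 808 to 1641 bp long. The fragment 41866398 to 41867205 had 33 interzone and 16 phalange partners, against a median of 5 and 3 over the domain. The fragment 41736490 to 41738130 had 29 and 14, and 41850405 to 41851555 had 22 and 19. The fragments 41754908 to 41756316 and 41832125 to 41833480 had 26 and 12, and 20 and 17. The first of these, within the stretch at 230 to 270 kb, was the shortest of the 5. Over all 711 fragments, partner numbers in the libraries had a Spearman rho of 0.80. The values of a fragment in the libraries share its length and its baits.

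Single fragment pairs were seldom listed in both libraries. Of the domain's pairs at all distances 1271 were in both, 25% of those of the interzone and 36.6% of those of the phalange. At 20 kb or more 55 were, 2.37% and 4.49%, where the whole locus had 1.49% and 2.33%. The locus share also covers pairs farther apart than the domain is long. At like distance the domain went both ways. At 50 to 100 kb it had 1.35% and 2.61% against 2.23% and 3.99% in the locus, and it was also lower at 100 to 150 and 200 to 250 kb. At 20 to 50 kb it had 4.33% and 8.27% against 3.69% and 7.27%, and it was also higher at 150 to 200 and 250 to 320 kb. The classes at 200 to 250 and 250 to 320 kb rest on 1 shared pair each, so their direction carries little weight. At 100 kb or more 15 of the domain's pairs were in both, 1.6% and 2.97%. Long-range contact can therefore be compared between the libraries over regions and not pair by pair.

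The interzone over phalange ratio of observed over expected at 20 kb or more was 1.05 (exact conditional binomial 95% interval 0.977 to 1.12), which includes 1. On the log2 scale it was 0.0663 (-0.0343 to 0.167), and it was 0.13 (0.00958 to 0.252) at 50 kb or more and 0.118 (0.0117 to 0.226) without the last 50 kb, where the intervals exclude 0. Weighted by fragment partners it was 0.0121 (-0.0884 to 0.113) and weighted by length class 0.00074 (-0.0998 to 0.102), where they include 0. By summed signal it was -0.337, with the phalange the higher. Of the 8 distance classes, the interval excluded 1 in 1, at 100 to 150 kb with a ratio of 1.22 (1.03 to 1.46), without adjustment for the number of classes. For the contact between the first 40 kb and the stretch at 230 to 270 kb the ratio was 1.21 (0.902 to 1.63), an interval that includes no difference and also a contact higher by up to 1.63 times in the interzone. For the first 40 kb with the middle part it was 1.21 (1.02 to 1.45), without adjustment for the number of contacts compared. Weighted by fragment partners, observed over expected for this contact was alike in the libraries, at 0.8447 in interzone and 0.8235 in phalange chromatin. Within the middle part the unweighted ratio was 1.04 (0.941 to 1.16).

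By 20 kb bins, 104 of the 136 bin pairs inside the domain had the minimum of 20 listed pairs over both libraries. A two-sided Fisher's exact test against the other pairs at the same bin distance, with Benjamini-Hochberg adjustment over all 1455 bin pairs tested in the locus, called 0 of them (background 0.0%), the lowest adjusted p being 1.0. Without adjustment 5 had a p under 0.05, or 4.81%, against 4.05% in the locus. A 2-fold difference or more was seen in 6, or 5.77%, against 6.19%: 4 were higher in the interzone (background 3.51%) and 2 in the phalange (2.68%). Shares of this size are close to those of the locus. In simulated lists with planted 3-fold differences, this test called 23 of 50 such bin pairs and 1 unchanged bin pair. A count of 0 called therefore does not exclude differences of that size. The highest log2 ratio was 1.29, for 41670001 to 41690000 with 41810001 to 41830000, with 34 interzone and 8 phalange pairs (Fisher's exact p = 0.0151, adjusted p = 1.0). Next were 41810001 to 41830000 with the bin ending at 41910000, at 28 and 7 pairs (1.15), and 41710001 to 41730000 with 41850001 to 41870000, at 27 and 7 (1.14). The lowest was -1.16, for 41690001 to 41710000 with the bin ending at 41910000, at 11 and 16 pairs. It was followed by the bin ending at 41910000 with 41930001 to 41950000 at 25 and 26 pairs (-1.0) and by 41910001 to 41930000 with 41930001 to 41950000 at 17 and 18 (-0.93). The latter 2 lie in or beside the stretch of recurring fragment lengths, where the phalange is the higher relative to its list.

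Blocks of 40 kb gave larger counts, in a test added after seeing the data. Of 35 block pairs tested in the domain, 0 passed an adjusted p of 0.05 by the exact conditional binomial test with Benjamini-Hochberg adjustment over the 640 block pairs tested in the locus (background 0.156%), the lowest adjusted p being 0.446. Without adjustment 3 had a p under 0.05, or 8.57%, against 6.56%. They were the seventh block with the eighth, with 44 interzone and 41 phalange pairs and a ratio of 0.558 (0.356 to 0.875), the first with the fourth, with 75 and 26 pairs and a ratio of 1.70 (1.07 to 2.76), and the first with the seventh, with 119 and 52 pairs and a ratio of 1.42 (1.02 to 2.01). The last of these had an exact p of 0.0337 and an adjusted p of 0.664. At these numbers of pairs no difference between the libraries inside the domain passed the adjustment, and the intervals show how large a difference the counts allow.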

How the data were processed

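Crosslinked chromatin was cut with ApoI, ligated, cut with DpnII, sheared to 250 to 400 bp and captured with baits, per the labels' protocols. Reads were processed with FastQC and BWA on the galGal5 build, per the submitters' processing notes; versions, duplicate removal and the treatment of reads with several matches are not given in the sources used here. The authors deposited, per the file headers, a signal per fragment pair (the phalange list has no header line and the same 8 columns). Its normalization and the sequencing depth are unknown. No read counts were inferred.

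Fragments of both lists were numbered by start, and distances ran between midpoints. The domain, its edges and the lists of named items were chosen with earlier results of these data known. Expected numbers used distance classes of 10 kb (1 kb under 20 kb) over the whole locus, the domain included. Named were the 5 fragments with most partners, the 5 pairs in both lists with the highest lower signal and the 3 highest per library. Also named were the 3 highest and 3 lowest block pairs per library and bin pairs. Minima of the crossing score inside the domain were named when their prominence was at least 0.1. Bin pair tests used a pseudocount of 0.5 in the log2 ratio. Code ran in Python 3.11.15 with numpy 2.4.6, scipy 1.17.1, pandas 2.3.3 and matplotlib 3.10.9 and was tested on simulated data.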

Additional observations from a re-analysis of the deposited data

Results flagged for a closer look

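Adjacent fragments, which the comparisons above leave out, carried most of the signal of the domain and were listed for that reason: the data lie outside the main measurement, and no control library was analysed here to set them against. In the interzone 676 adjacent pairs held 87.7% of the domain's signal, with a median of 0.0791. In the phalange 677 held 85.8%, with a median of 0.0991. Over the whole locus the shares were 87.4% and 87.0%.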

How the results depend on the processing

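The inside of the domain, 0.890 in the interzone and 0.850 in the phalange, depended on the measure. It was 1.27 and 1.6 by summed signal, 0.986 and 0.9 with a minimum distance of 50 kb, 0.973 and 0.965 with the expectation weighted by the partners of each fragment, 1.04 and 1.04 weighted by length class, and 1.0 and 0.934 by signal without the last 50 kb of the domain; without fragments under 100 bp the interzone was at 0.93. The log2 ratio of the libraries, 0.0663 (-0.0343 to 0.167), was -0.337 by summed signal. Its interval excluded 0 at 50 kb or more (0.13, 0.00958 to 0.252), without bins of few listed pairs (0.106, 0.0017 to 0.211) and without the last 50 kb (0.118, 0.0117 to 0.226). With the expectation weighted by the partners of each fragment the log2 ratio was 0.0121 (-0.0884 to 0.113). Weighted by length class it was 0.00074 (-0.0998 to 0.102).

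Contacts across the position 260 kb from the left edge, 0.878 and 0.904, were 1.31 and 1.43 by signal, 0.773 and 0.768 with the edges moved inwards by 10 kb, and 1.15 and 1.13 by signal without the last 50 kb; in the interzone they were 1.07 without bins of few listed pairs and 1.02 without the last 50 kb. Contacts between the first and the last 40 kb, 1.66 and 1.30, were 3.14 and 2.5 by signal, and 1.04 (0.633 to 1.60) and 0.808 (0.388 to 1.49) with the edges moved inwards; weighted by length class they were 1.27 and 0.946. Without the last 50 kb they have no value. The contact of the first 40 kb with the stretch at 230 to 270 kb ranged from 2.07 (weighted by partners) to 3.06 in the interzone and from 1.85 to 2.63 in the phalange. The 6 bin pairs past a 2-fold difference were 10 with a minimum of 10 listed pairs and 2 with a minimum of 40, and the number past an adjusted p of 0.05 was 0 under each of the 6 alternatives run, with 2 to 6 at an unadjusted p under 0.05. The cause of these shifts was not tested. Length weighting, removal of the last 50 kb and the contact with the stretch at 230 to 270 kb were chosen after seeing the data.

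No paired analysis was possible because there is 1 library per tissue and the labels carry no replicate numbers; for the same reason, leaving out a replicate was not possible. The unknown depth limits all absolute levels.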
